A study of Mus musculus with 18 samples.

Results

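The genes described here are 34 stromal and fibroblast matrix genes, chosen by symbol from the 34745 genes of the deposited table: collagens, matrix glycoproteins and proteoglycans, enzymes and inhibitors that process the matrix, fibroblast receptors and contractile genes, none of them known as a main product of macrophages. All 34 were in the table, and 33 had enough counts to be tested. Postn, the gene of periostin, had 34 counts in the 18 libraries together and was not. The cells were mouse macrophages grown out of bone marrow in 20 ng/ml of macrophage colony-stimulating factor (M-CSF) for 6 days and then given 100 ng/ml of lipopolysaccharide (LPS) for 8 h, so that every group carried both agents. Wild-type cells (Mkrn2+/+, WT) were compared with cells labelled as knockouts (Mkrn2-/-, KO) of Mkrn2, which encodes an RNA-binding ubiquitin ligase. For each genotype label, mRNA was sequenced from whole cells (total RNA), from polysomes, which are mRNAs carrying several ribosomes, and from monosomes, which are mRNAs on lone ribosomes, with 3 libraries each and 18 in all. The labels do not give the strain, sex or age of the mice or the strand of the libraries. They also do not say whether the 3 libraries of a group came from separate animals or cultures, so that p-values measure the spread between libraries only.

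Collagens are secreted proteins translated on the endoplasmic reticulum, where their chains are modified, folded into triple helices with the help of the chaperone Serpinh1, and exported. Outside the cell their ends are trimmed, with Pcolce as an enhancer, and lysyl oxidases such as Lox and Loxl1 cross-link the fibrils, while small proteoglycans such as Dcn, Lum and Bgn bind them. In bone marrow these genes are known as products of fibroblasts, reticular and other mesenchymal stromal cells, and adherent stromal cells can be carried into marrow cultures. Macrophages are known more for breaking down and taking up matrix than for making it.

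The libraries held 9190034 to 16711558 counts, and levels are given below as CPM, counts divided by library size after TMM scaling between libraries. Mkrn2 itself stood at 66.9, 59.7 and 66.3 CPM in WT and at 53.7, 57 and 60.6 in the KO-labelled libraries of total RNA. In monosome RNA it stood at 85.3, 91.2 and 91.1 in WT and at 63.4, 75 and 68 in KO-labelled libraries, so that its RNA was not absent under the knockout label. Whether the counted reads lie in the deleted part is not stated. The summed level of 13 macrophage markers was 11500 to 13300 CPM in WT and 12700 to 13400 in KO-labelled total RNA. Among osteoblast markers Bglap, Bglap2, Sp7, Ibsp and Dmp1 were at 0 in every group, and among adipocyte markers Adipoq and Cidec were. Other genes of both lists were present. The 9 osteoblast markers, of which 4 were tested, summed to 1860 to 2070 CPM in WT and 1850 to 1960 in KO-labelled total RNA. All of that sum came from Alpl, Runx2, Spp1 and Phospho1, the listed genes not at 0. The 6 adipocyte markers, of which 3 were tested, summed to 483 to 548 and 468 to 562 there, all from Fabp4, Lpl and Pparg. Neither sum is read as a measure of osteoblasts or adipocytes. Of the endothelial markers Tek was at 0 in every group, and their sum was 80.9 to 87.9 CPM in WT and 67.7 to 74.7 in KO-labelled total RNA.

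The matrix genes were present at low levels against that background: they took 0.0722% to 0.103% of the counts in total RNA, 0.0488% to 0.067% in polysome RNA and 0.0309% to 0.046% in monosome RNA. These are shares of raw counts, and the order of polysome and monosome RNA depends on scaling. With TMM scaling the mean sum in WT was 408 CPM in polysome and 552.5 in monosome RNA. In KO-labelled libraries it was 520 and 703. Per length, Dcn, the small proteoglycan decorin, was the most abundant of them in WT total RNA, with 33.3 ± 2.79 of the authors' FPKM (mean ± SD, n = 3). Serpinh1 followed at 22.2 ± 9.43 FPKM, within whose spread Sparc lay at 19.2 ± 1.12 and Fstl1 at 15.0 ± 0.88. The CCN-family gene Cyr61 stood at 11.5 ± 0.931 FPKM, a level that did not differ beyond the spread from Col1a1 at 10 ± 2.3. Lox, at 7.39 ± 0.732 FPKM, and Col1a2, at 6.58 ± 1.07, were likewise within each other's spread. At the low end Lum stood at 0.25 FPKM, Col6a3 at 0.156 and Postn at 0.0157. This order depends on the gene lengths behind the FPKM, which can far exceed the coding length. They imply 16210 bases for Col1a2 and 6934 for Col1a1, whose coding lengths are 4116 and 4359 bases. In CPM Col1a2 stood above Col1a1 in WT total RNA, at 84.3 ± 13.6 against 55 ± 12.5.

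Added up, the 34 genes stood higher in the KO-labelled libraries than in the WT libraries in all 3 RNA sources. In total RNA the summed level was 640.2 ± 69.2 CPM (SD, n = 3; 574 to 712) in WT and 792 ± 34.5 (752 to 813) in KO-labelled libraries, a ratio of 1.24. In polysome RNA it was 408 ± 36.2 (381 to 450) in WT and 520.0 ± 23.7 (494 to 540) in KO-labelled libraries, a ratio of 1.27. In monosome RNA it was 552.5 ± 36.4 (511 to 576) in WT and 703 ± 26 (677 to 728) in KO-labelled libraries, again a ratio of 1.27. The 2 genotype labels did not overlap in any RNA source. Whether the 3 RNA sources were taken from the same cultures is not stated. Their agreement, here and for single genes below, is therefore not counted as independent repeats. No p-value is attached to the sum, because the genes were chosen with earlier results of these libraries known. In bulk RNA, fewer cells of a type and less RNA per cell cannot be told apart, so the sum does not say whether the share of stromal cells or their matrix RNA differed. The number of stromal cells per library was not measured. Lyz2, the lysozyme gene of macrophages, stood at 4329, 3785 and 3726 CPM in WT and at 4167, 4199 and 4200 in KO-labelled total RNA, and these groups overlapped. In monosome RNA it stood at 4725, 5078 and 5136 and at 4935, 5557 and 5906, which also overlapped. In polysome RNA it stood at 4421, 4355 and 4411 in WT and at 4953, 5272 and 5130 in KO-labelled libraries, apart and in the same direction as the matrix sum. Summed markers of dendritic cells also stood higher under the KO label: 4 of the 8 were tested, Siglech was at 0 in every group, and the sums were 99.9 to 107 CPM in WT and 110 to 125 under the KO label in total RNA. For polysome RNA they were 59.7 to 69.1 and 70.5 to 80, and in monosome RNA 105 to 114 and 135 to 140. Markers of neutrophils, of which 2 of 9 were tested and Ly6g and Retnlg were at 0 in every group, summed to 7.71 to 11.5 in WT and 13.6 to 15.2 in KO-labelled monosome RNA, and overlapped in the other RNA sources. Endothelial markers, of which 5 of 8 were tested, went the other way. They summed to 80.9 to 87.9 CPM in WT and 67.7 to 74.7 under the KO label in total RNA. In polysome RNA the endothelial sums were 52.6 to 54.9 and 41.9 to 49.1, and in monosome RNA they overlapped. The part of these cell types in the matrix sum was not tested.

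**Figure D1:**
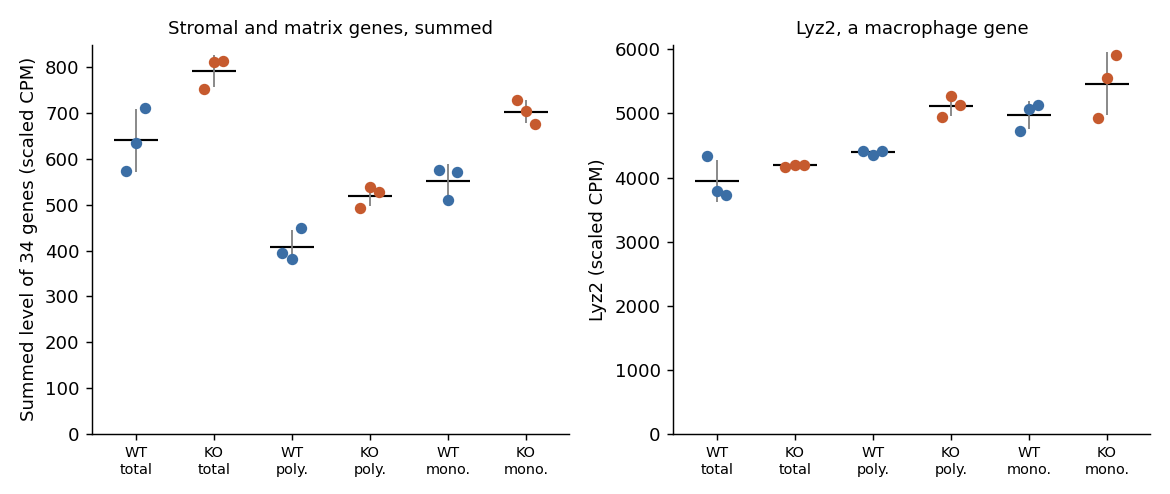
Summed level of the 34 matrix genes (left) and level of Lyz2 (right) in CPM on the y axis, by RNA source and genotype label on the x axis. Points are libraries, and lines and bars are means and SDs of 3 libraries. The KO-labelled points of the sum lie above all WT points in each RNA source, 752 to 813 against 574 to 712 in total RNA.

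Most single genes leaned the same way. For some, every KO-labelled library lay above every WT library, and for the others the labels overlapped or stood in the opposite order. In total RNA, 30 of the 33 tested genes had a fitted log2 difference above 0, against 51.9% of all genes tested, and their median log2 difference was 0.32 beside 0.01 over all genes. None passed edgeR's quasi-likelihood test at an adjusted p of 0.05, against 0% of all genes called higher and 0.0156% called lower. At an unadjusted p under 0.05 there were 12 higher and 0 lower, against 3.15% and 2.7% of all genes. Every KO-labelled library lay above every WT library for 16 genes, against 7.04% of all genes, and below for 0, against 6.56%. DESeq2 called 0 of them, against 0.149% of all genes called higher, and voom with quality weights called Ctgf and Lox higher, against 0.289%.

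In polysome RNA 29 of 33 genes were above 0, against 51.2% of all genes, with a median of 0.36. None was called, against 0.00782% of all genes called in each direction, and 16 were higher and 0 lower at an unadjusted p under 0.05, against 4.12% and 2.86%. For 18 genes the KO-labelled libraries lay above all WT libraries, against 8.23%, and for 0 below, against 6.67%. DESeq2 called Col3a1, Col5a2 and Ctgf higher there, against 0.325% of all genes, and voom called 0, against 0.141%. In monosome RNA 29 of 33 genes were above 0, against 48%, with a median of 0.36. There 1 gene, Ctgf, rose past the threshold, against 0.125% of all genes called higher. DESeq2 called Ctgf, Col1a2, Col3a1 and Lox higher, against 0.568%. At an unadjusted p under 0.05, 13 genes were higher and 1 lower, against 5.32% and 6.38% of all genes. The libraries did not overlap for 12 genes that were higher and for Adamts6, which was lower, against 5.98% and 6.49%. Without WT monosome replicate 1 the monosome median was 0.22, and 25 genes were above 0.

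**Figure D2:**
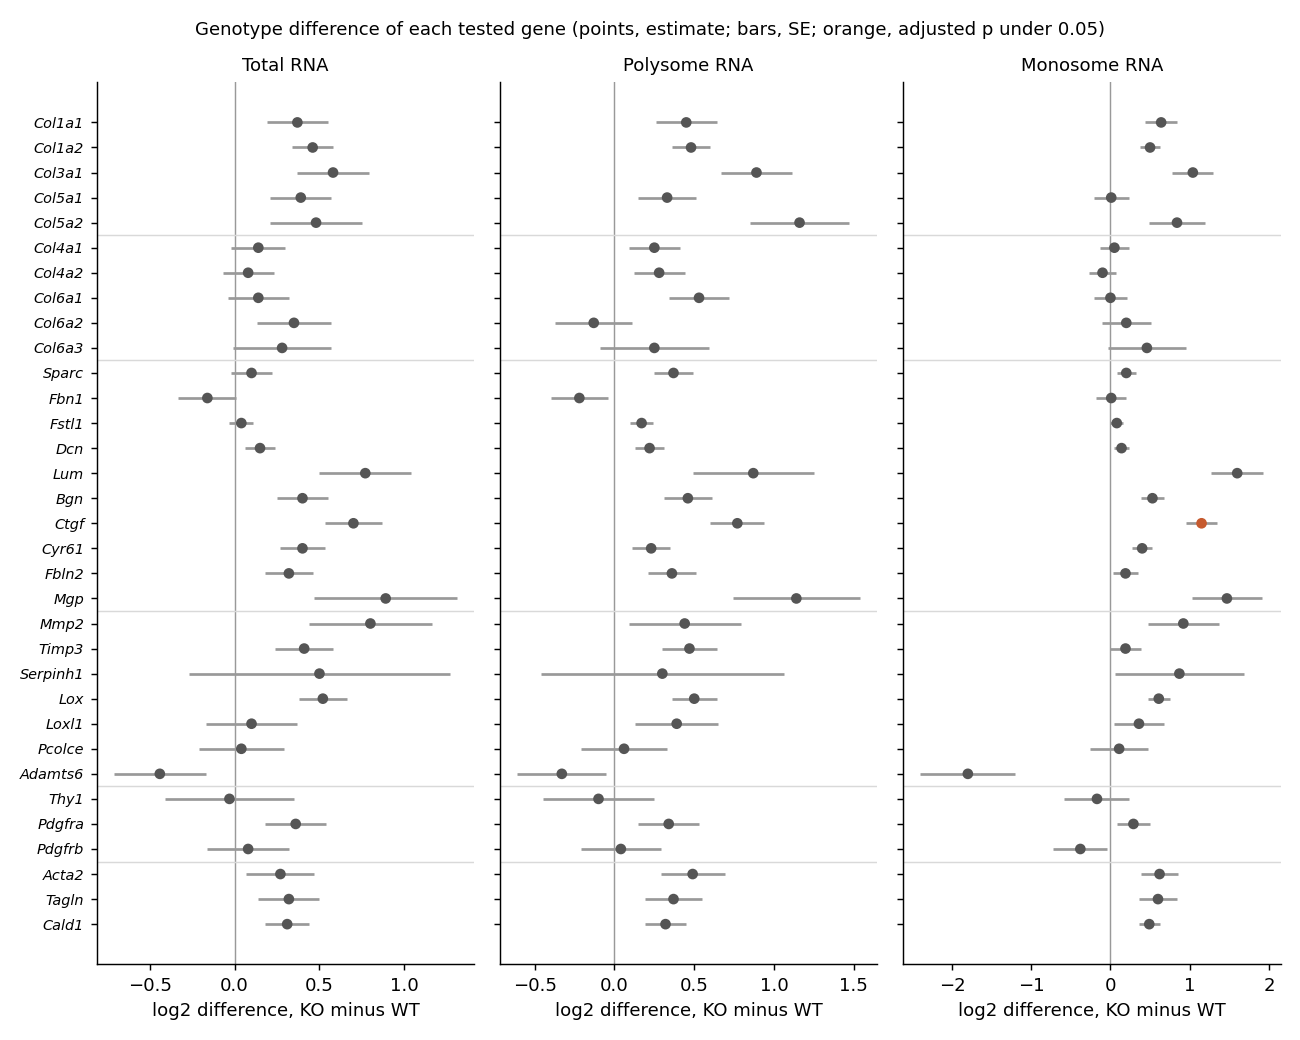
Fitted log2 difference of KO-labelled against WT libraries (x axis) for the 33 tested matrix genes (y axis), in total, polysome and monosome RNA. Bars are standard errors, and the orange point marks Ctgf in monosome RNA, the gene past an adjusted p of 0.05. Most points lie to the right of 0, at medians of 0.32, 0.36 and 0.36.

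The fibrillar collagens had the highest median of the 6 role groups in each RNA source. The median log2 differences of Col1a1, Col1a2, Col3a1, Col5a1 and Col5a2 were 0.46 in total, 0.48 in polysome and 0.64 in monosome RNA, with 3, 4 and 4 of the 5 at an unadjusted p under 0.05. Col1a2 (ENSMUSG00000029661, chromosome 6, 4504814 to 4541544), which encodes a chain of type I collagen, was their most abundant member by count. In total RNA Col1a2 stood at 72.4, 81.3 and 99.1 CPM in WT and at 111, 114 and 123 in KO-labelled libraries. Polysome values of Col1a2 were 35.0, 36.2 and 44.1 in WT and 47.6, 54.3 and 59.0 in KO-labelled libraries. Monosome values of Col1a2 were 57.1, 48.8 and 55.9 in WT and 82.6, 76.3 and 69.0 in KO-labelled libraries. The 3 KO-labelled libraries were the 3 highest in each RNA source, with the WT libraries spread widely in total RNA. The log2 differences were 0.46 ± 0.12 (SE), 0.48 ± 0.12 and 0.50 ± 0.13, with adjusted p-values of 0.405, 0.292 and 0.117.

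Col1a1 (ENSMUSG00000001506, chromosome 11, 94936224 to 94953042), the partner chain of type I collagen, stood at 41.6, 57.2 and 66.3 CPM in WT and at 68.2, 71.4 and 74.3 in KO-labelled total RNA. Polysome values of Col1a1 were 16.0, 20.1 and 26.9 in WT and 27.0, 26.7 and 32.7 in KO-labelled libraries. Monosome values of Col1a1 were 13.0, 15.0 and 17.2 in WT and 21.1, 21.5 and 28 in KO-labelled libraries. The groups were apart in total and monosome RNA and touched in polysome RNA, where WT replicate 3 lay level with the 2 lower KO-labelled libraries. Col1a1 differed between the labels by 0.37 ± 0.18, 0.45 ± 0.19 and 0.64 ± 0.20 on the log2 scale, with adjusted p-values of 0.879, 0.638 and 0.213. Col3a1, the gene of type III collagen, is named here after its values were seen. It went from 13.1 ± 2.91 to 19.7 ± 1.89 CPM in total, from 4.71 ± 1.66 to 8.72 ± 1.5 in polysome and from 4.15 ± 0.77 to 8.58 ± 1.13 in monosome RNA (mean ± SD, n = 3). Its log2 differences were 0.58 ± 0.21, 0.89 ± 0.22 and 1.04 ± 0.26, none of which was called by edgeR.

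Stretches before the start sites of 3 members of different roles, a collagen, a CCN gene and a contractile gene, are printed because all 3 hold the letters GGAATG or their complement, the core of the site bound by TEAD factors, which are known regulators of CCN and contractile genes. The sequences are the 250 bases before the RefSeq start (build GRCm38.p6), on the gene's strand, at chr1:45311288-45311537 (plus strand) for Col3a1, chr3:145649986-145650235 (minus strand) for Cyr61, which RefSeq lists as Ccn1, and chr19:34255374-34255623 (minus strand) for Acta2. Capitals mark any match to the searched letters.
Col3a1: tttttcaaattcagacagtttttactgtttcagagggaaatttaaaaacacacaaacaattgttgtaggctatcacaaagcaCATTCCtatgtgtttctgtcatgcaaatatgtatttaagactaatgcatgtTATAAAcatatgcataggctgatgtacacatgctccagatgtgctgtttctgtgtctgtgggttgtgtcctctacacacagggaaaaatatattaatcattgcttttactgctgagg
Cyr61: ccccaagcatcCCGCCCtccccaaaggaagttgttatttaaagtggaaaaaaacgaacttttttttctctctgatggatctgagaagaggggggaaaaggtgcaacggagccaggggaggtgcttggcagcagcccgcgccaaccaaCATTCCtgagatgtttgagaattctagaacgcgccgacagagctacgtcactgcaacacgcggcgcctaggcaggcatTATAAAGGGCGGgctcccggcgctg
Acta2: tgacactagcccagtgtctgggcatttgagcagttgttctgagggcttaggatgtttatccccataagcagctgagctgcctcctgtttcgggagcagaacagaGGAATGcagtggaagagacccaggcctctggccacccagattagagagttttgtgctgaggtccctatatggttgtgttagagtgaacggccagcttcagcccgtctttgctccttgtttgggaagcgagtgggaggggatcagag

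Promoters were found in the RefSeq table for 21 of the 34 genes, and 6 motifs were searched on both strands. GGAATG was found in 4 of the 21, Col3a1, Cyr61, Acta2 and Cald1, and in 12.6% of all 32851 promoters of the table. The GC box GGGCGG was in 12, against 32.7%, the CCAAT box in 4, against 33.8%, and the TATA box letters TATAAA in 3, against 12.4%. The AP-1 letters TGANTCA were in 1, against 6.75%. The CArG box, searched strictly as CC, 6 letters A or T, then GG, was in 0, against 1.47%. Forms with a C or G among the inner letters were not searched. The printed Acta2 stretch holds such a form, ccctatatgg, which is not in capitals. TATAAA and GGGCGG adjoin in Cyr61 and do not overlap. A match describes these letters and is no evidence of binding.

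Collagens of basement membrane and beaded filaments did not share the size of the fibrillar ones: the medians over Col4a1, Col4a2, Col6a1, Col6a2 and Col6a3 were 0.14, 0.25 and 0.05 in total, polysome and monosome RNA. Col6a1, in polysome RNA, was the 1 gene of them with an unadjusted p under 0.05 in any RNA source, at a log2 difference of 0.53, beside 0.14 in total and 0.00 in monosome RNA. It is named after its values were seen. Col4a1, a basement membrane collagen chain, differed by 0.14 ± 0.16, 0.25 ± 0.16 and 0.05 ± 0.18, and its libraries overlapped in each RNA source. The difference between the 2 collagen groups was not tested.

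Among glycoproteins and proteoglycans the medians were 0.36, 0.37 and 0.30 over the 10 tested of 11 genes, with 5, 7 and 5 at an unadjusted p under 0.05. Ctgf, which encodes a CCN-family matricellular protein, was the gene called. Ctgf (ENSMUSG00000019997, chromosome 10, 24595442 to 24598683) stood at 6.73, 4.22 and 6.72 CPM in WT and at 13.3, 13.7 and 12 in KO-labelled monosome RNA, from 41, 32 and 47 counts against 101, 105 and 94. In total RNA Ctgf stood at 5.93, 4.50 and 6.89 in WT and at 9.87, 9.17 and 9.17 in KO-labelled libraries. Polysome values of Ctgf were 4.44, 6.22 and 5.42 in WT and 8.42, 10.1 and 8.89 in KO-labelled libraries. All KO-labelled libraries lay above all WT libraries in the 3 RNA sources. In monosome RNA Ctgf rose 2.22-fold (95% interval 1.68 to 2.94; log2 1.15 ± 0.19, adjusted p = 0.0167). The call held in 12 of 14 other settings, with adjusted p-values from 3.41e-05 to 0.436, and was lost with the libraries of those groups alone (0.436) and with voom (0.0952). In total and polysome RNA its log2 differences were 0.70 ± 0.17 and 0.77 ± 0.17, with adjusted p-values of 0.348 and 0.212. The monosome to total ratio of Ctgf differed between the labels by 0.45 ± 0.26 (log2, adjusted p = 0.982), so the difference in monosomes was not shown to exceed that in total RNA. Ctgf overlaps Gm15270, a gene with 88 counts in all libraries.

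Cyr61 (ENSMUSG00000028195, chromosome 3, 145646976 to 145649981), the related CCN gene, stood at 18.3, 16.8 and 19.9 CPM in WT and at 26, 24.6 and 21.8 in KO-labelled total RNA. Polysome values of Cyr61 were 24.9, 21.3 and 23.6 in WT and 30.1, 28.6 and 22.9 in KO-labelled libraries. Monosome values of Cyr61 were 18.4, 13.8 and 15.0 in WT and 22.5, 20.6 and 19.3 in KO-labelled libraries. The groups were apart in total and monosome RNA and overlapped in polysome RNA, where KO-labelled replicate 3 lay among the WT libraries. Cyr61 differed between the labels by 0.40 ± 0.13, 0.23 ± 0.12 and 0.40 ± 0.13 on the log2 scale, with adjusted p-values of 0.54, 0.798 and 0.245.

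Bgn (ENSMUSG00000031375, chromosome X, 73483602 to 73495933), the small proteoglycan biglycan, stood at 20.4, 21.5 and 26.4 CPM in WT and at 26.5, 31.9 and 31.9 in KO-labelled total RNA. Polysome values of Bgn were 10.7, 10.1 and 11.6 in WT and 12.6, 16.0 and 16.0 in KO-labelled libraries. Monosome values of Bgn were 21.0, 18.3 and 20.3 in WT and 23.1, 34.7 and 28 in KO-labelled libraries. Every KO-labelled library was above every WT library, though in total RNA by a margin of under 1 CPM between the nearest pair. Bgn differed between the labels by 0.40 ± 0.15, 0.46 ± 0.15 and 0.53 ± 0.15 on the log2 scale, with adjusted p-values of 0.623, 0.472 and 0.172.

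Dcn (ENSMUSG00000019929, chromosome 10, 97479500 to 97518162) differed little between the labels. In total RNA Dcn stood at 53.4, 51.1 and 60.1 CPM in WT and at 58.0, 61.9 and 63.4 in KO-labelled libraries. Polysome values of Dcn were 38.3, 30.7 and 36.0 in WT and 38.7, 41.5 and 42.0 in KO-labelled libraries. Monosome values of Dcn were 131, 132 and 153 in WT and 153, 161 and 144 in KO-labelled libraries. The groups overlapped in total and monosome RNA, and in polysome RNA the lowest KO-labelled library stood just over the highest WT library. Dcn differed between the labels by 0.15 ± 0.09, 0.22 ± 0.09 and 0.14 ± 0.09 on the log2 scale, with adjusted p-values of 0.946, 0.658 and 0.62.

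Sparc (ENSMUSG00000018593, chromosome 11, 55394500 to 55420080), a collagen-binding glycoprotein, stood at 65.4, 64.5 and 71.8 CPM in WT and at 67.6, 74.6 and 73.2 in KO-labelled total RNA. Polysome values of Sparc were 42.1, 34.3 and 48.5 in WT and 52.3, 54.6 and 54.9 in KO-labelled libraries. Monosome values of Sparc were 59.9, 64.2 and 80.5 in WT and 76.0, 86.0 and 72.7 in KO-labelled libraries. The groups were apart in polysome RNA alone, and the log2 differences were 0.10 ± 0.12, 0.37 ± 0.12 and 0.20 ± 0.12, none called. Fstl1 (ENSMUSG00000022816, chromosome 16, 37776873 to 37836514), a secreted glycoprotein of the same family as Sparc, stood at 78.0, 69.2 and 71.0 CPM in WT and at 73.3, 80.7 and 70.9 in KO-labelled total RNA. Polysome values of Fstl1 were 52.3, 52.1 and 52.4 in WT and 58.9, 61.7 and 56.3 in KO-labelled libraries. Monosome values of Fstl1 were 45.8, 46.5 and 46.2 in WT and 44.5, 50.5 and 50.8 in KO-labelled libraries. Fstl1 libraries overlapped in total and monosome RNA and were apart in polysome RNA, and the log2 differences were 0.04 ± 0.07, 0.17 ± 0.07 and 0.08 ± 0.08, none called.

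Of the remaining glycoproteins, Mgp, an inhibitor of calcification, had log2 differences of 0.89 ± 0.42, 1.14 ± 0.40 and 1.47 ± 0.44, with no overlap between labels in any RNA source. Lum, the proteoglycan lumican, had 0.77, 0.87 and 1.60 from 2 to 15 counts a library, also with no overlap. Fbn1, the microfibril protein fibrillin, stood at -0.16, -0.22 and 0.01, and Fbln2, a fibulin, at 0.32, 0.36 and 0.19. These 4 genes are named after their values were seen, and edgeR called none of them.

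Of the genes that fold, trim and cross-link collagen or degrade matrix, Lox was the 1 nearest to a call. The medians over the 7 genes were 0.41, 0.39 and 0.36, with 3, 2 and 1 higher at an unadjusted p under 0.05 and 1, Adamts6, lower in monosome RNA. In total RNA Lox (ENSMUSG00000024529), a lysyl oxidase, stood at 43.2, 47.8 and 39.6 CPM in WT and at 59.9, 68.0 and 59.7 in KO-labelled libraries. Polysome values of Lox were 36.0, 36.4 and 33.1 in WT and 50.1, 54.3 and 44.8 in KO-labelled libraries. Monosome values of Lox were 51.2, 48.9 and 44.8 in WT and 87.3, 79.1 and 54.8 in KO-labelled libraries. The groups did not overlap in any RNA source, and KO-labelled monosome replicate 3 stood nearer to WT than the other KO-labelled monosome libraries did. The log2 differences were 0.52 ± 0.14, 0.50 ± 0.14 and 0.61 ± 0.14, with adjusted p-values of 0.401, 0.326 and 0.0877. The monosome difference was called in 3 of 14 other settings, with adjusted p-values from 0.00209 to 0.699, the lowest without that replicate, at a log2 difference of 0.79.

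Serpinh1 (ENSMUSG00000070436, chromosome 7, 99345375 to 99353230), the collagen chaperone, varied widely within groups in monosome RNA and in WT total RNA. In monosome RNA Serpinh1 stood at 58.1, 4.35 and 3.86 CPM in WT and at 57.9, 5.34 and 56.0 in KO-labelled libraries, from 354, 33 and 27 counts against 438, 41 and 437. In total RNA Serpinh1 stood at 23.6, 54.6 and 59.1 in WT and at 61.4, 67.5 and 66.2 in KO-labelled libraries. Polysome values of Serpinh1 were 45.7, 41.7 and 53.3 in WT and 55.5, 61.1 and 57.1 in KO-labelled libraries. Monosome libraries thus fell into a high and a low set in both labels, and WT total replicate 1 stood apart from the other 2 WT total libraries. In total and polysome RNA every KO-labelled library lay above every WT library. The standard errors were 0.77, 0.76 and 0.81 for log2 differences of 0.50, 0.30 and 0.87, none called. Among genes that reached 200 counts in a library, a jump of 5-fold or more within a group was found for 104 of 4397 genes (2.37%) in WT and 121 of 4603 (2.63%) in KO-labelled monosome RNA, with Serpinh1 as the 1 matrix gene among them. Its neighbour Map6 had 49, 54 and 47 monosome counts in WT and 77, 77 and 63 in KO-labelled libraries, and did not mirror it. The effect of library preparation or counting on Serpinh1 was not tested.

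Adamts6 (ENSMUSG00000046169, chromosome 13, 104287873 to 104494763), a secreted metalloproteinase gene, stood lower in the KO-labelled monosome libraries, at very low counts. Its monosome values were 0.984, 0.395 and 1.0 CPM in WT and 0.264, 0.261 and 0.128 in KO-labelled libraries, from 6, 3 and 7 counts against 2, 2 and 1. In total RNA Adamts6 stood at 1.32, 2.96 and 1.92 in WT and at 1.21, 1.57 and 1.81 in KO-labelled libraries. Polysome values of Adamts6 were 1.69, 1.63 and 1.31 in WT and 1.09, 1.36 and 1.25 in KO-labelled libraries. The labels were apart in monosome RNA and overlapped in total RNA, and in polysome RNA they overlapped by a narrow margin. The log2 differences were -0.44 ± 0.27, -0.33 ± 0.28 and -1.80 ± 0.60 (adjusted p = 0.252 in monosome RNA), none called. Mmp2, a gelatinase, had 0.80, 0.44 and 0.92. Timp3, a matrix-bound inhibitor of metalloproteinases, had 0.41, 0.47 and 0.19, and lies within the span of Syn3, a gene with 993 counts. Loxl1 had 0.10, 0.39 and 0.36, and Pcolce had 0.04, 0.06 and 0.11. Mmp2, Timp3, Loxl1 and Pcolce were not called in any RNA source.

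The fibroblast surface genes Thy1, Pdgfra and Pdgfrb had medians of 0.08, 0.04 and -0.17. Thy1 (ENSMUSG00000032011, chromosome 9, 44043384 to 44048579), a surface glycoprotein of fibroblasts and lymphocytes, stood at 1.67, 1.22 and 1.61 CPM in WT and at 1.70, 1.52 and 1.18 in KO-labelled total RNA. Polysome values of Thy1 were 2.87, 1.02 and 2.02 in WT and 2.64, 1.49 and 1.35 in KO-labelled libraries. Monosome values of Thy1 were 1.97, 2.77 and 3.86 in WT and 3.70, 2.21 and 1.79 in KO-labelled libraries. Libraries of both labels overlapped throughout, and the log2 differences were -0.03 ± 0.38, -0.10 ± 0.35 and -0.17 ± 0.41. Of the receptors for platelet-derived growth factor, Pdgfra had 0.36, 0.34 and 0.29 and Pdgfrb had 0.08, 0.04 and -0.38, none called.

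The contractile genes had medians of 0.31, 0.37 and 0.60, with 1, 2 and 3 of the 3 at an unadjusted p under 0.05. Cald1 (ENSMUSG00000029761, chromosome 6, 34598500 to 34775473), which encodes the actin-binding caldesmon, stood at 15.6, 17.1 and 17.5 CPM in WT and at 18, 20.6 and 23.7 in KO-labelled total RNA. Polysome values of Cald1 were 11.6, 11.6 and 13.7 in WT and 13.3, 16.9 and 16.2 in KO-labelled libraries. Monosome values of Cald1 were 26.4, 21.7 and 20.6 in WT and 35.3, 31.9 and 29.1 in KO-labelled libraries. The labels were apart in total and monosome RNA, and the log2 differences were 0.31 ± 0.13, 0.32 ± 0.13 and 0.49 ± 0.13, none called.

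Acta2 (ENSMUSG00000035783, chromosome 19, 34241090 to 34255336), smooth muscle actin and a mark of myofibroblasts, stood at 2.09, 1.86 and 2.98 CPM in WT and at 3.15, 2.85 and 2.37 in KO-labelled total RNA. Polysome values of Acta2 were 1.97, 1.78 and 1.64 in WT and 3.05, 2.29 and 2.25 in KO-labelled libraries. Monosome values of Acta2 were 3.28, 2.37 and 2.86 in WT and 4.10, 5.21 and 3.71 in KO-labelled libraries. Both fractions were apart between the labels and total RNA overlapped, with log2 differences of 0.27 ± 0.20, 0.49 ± 0.20 and 0.62 ± 0.23, none called. Tagln (ENSMUSG00000032085, chromosome 9, 45929628 to 45936058), a further smooth muscle gene, stood at 5.16, 4.37 and 3.66 CPM in WT and at 5.21, 5.56 and 5.61 in KO-labelled total RNA. Polysome values of Tagln were 4.16, 4.08 and 3.45 in WT and 4.39, 6.07 and 4.69 in KO-labelled libraries. Monosome values of Tagln were 3.12, 1.71 and 3.15 in WT and 3.70, 3.52 and 4.74 in KO-labelled libraries. Tagln did not overlap between labels in any RNA source, by narrow margins, and the log2 differences were 0.32 ± 0.18, 0.37 ± 0.18 and 0.60 ± 0.24, none called. It shares 65 bases with Pcsk7, which had 11043 counts. In all, 13 of the 34 genes overlap another gene, 4 of them one of over 100 counts, and reads of overlapping genes could be divided between them in counting.

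**Figure D3:**
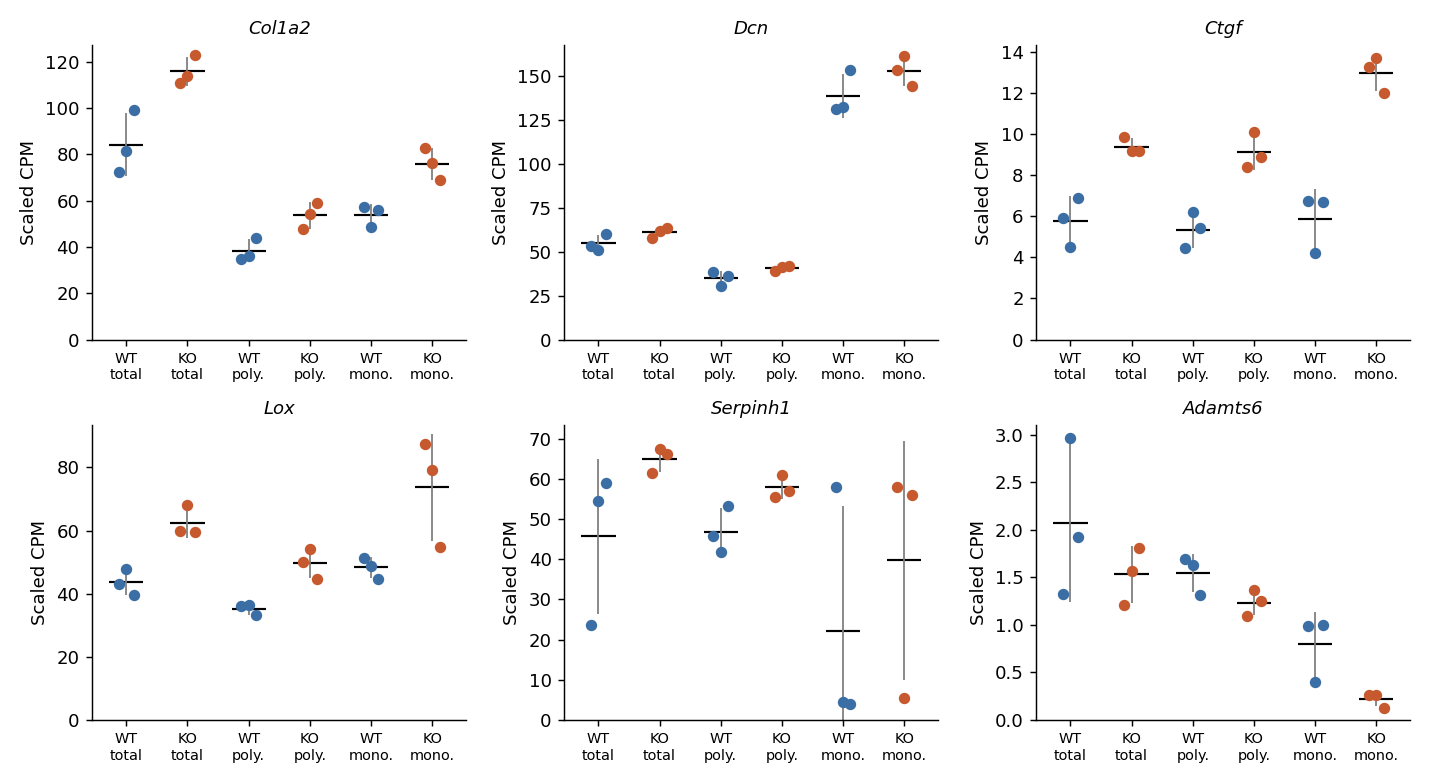
Levels in CPM (y axis) of Col1a2, Dcn, Ctgf, Lox, Serpinh1 and Adamts6, 1 panel each, by RNA source (x axis). Points are libraries, blue for WT and orange for KO-labelled, with the mean as a line and the SD as a bar, cut at 0 for Serpinh1. Col1a2, Ctgf and Lox have their KO-labelled points above the WT points in each RNA source, Dcn overlaps in total and monosome RNA, and Serpinh1 has monosome libraries near 4 to 5 and near 56 to 58.

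Most matrix genes had a like pattern across the libraries of an RNA source. After the mean of each RNA source was taken off, the correlation of a gene with the mean of the other tested members over the 18 libraries ranged from -0.51 to 0.969, with a median of 0.642. Col1a2 had the highest value, 0.969, then Col3a1 and Bgn at 0.913 each and Ctgf at 0.885. Adamts6 had the lowest, -0.51, and Thy1, at -0.181, and Fbn1, at -0.109, were also below 0. These correlations include the genotype difference, share the libraries and their depth, and are a description. Outside the set, the genes of closest pattern to the mean of the members were Chsy1 (r = 0.919), Mcl1 (0.881), Slc16a1 (0.879), Chrnb2 (0.879), Igfbp4 (0.876), Trabd2b (0.874), Clu (0.872), Sgk1 (0.871), Plxnc1 (0.87) and Sepn1 (0.869), over the same 18 libraries.

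Related lists had smaller medians in total RNA, given as values with no test between lists. Over 34 tested further matrix genes the median log2 difference in total RNA was 0.21, with 30 above 0, among them Ltbp2 at 0.56 ± 0.22, a microfibril-associated protein, Igfbp4 at 0.23 ± 0.10, a binding protein of insulin-like growth factors, and Ltbp3 at 0.21 ± 0.10. Over 23 tested enzymes of collagen synthesis it was 0.04, with 13 above 0, and Fkbp10, a chaperone and prolyl isomerase, stood at 0.25 ± 0.11, Adamts14, a procollagen peptidase, at 0.39 ± 0.21 and the lysyl oxidase Loxl2 at 0.28 ± 0.16. Over the 22 tested of 37 further stromal genes of marrow it was 0.13, with 16 above 0. The 3 genes of smallest p were the niche chemokine Cxcl12 at 0.66 ± 0.24, the cadherin Cdh11 at 0.41 ± 0.17 and the receptor kinase Axl at -0.11 ± 0.05. Of the 37, Meox1, Cnn1 and Actg2 were at 0 in WT total RNA, and Lepr, Ebf3, Meox1 and Notch3 in KO-labelled total RNA. Although 16 of the 22 were above 0, the sum over all 37 genes, tested or not, was not higher under the KO label in total RNA. It was 2210 to 2240 CPM in KO-labelled libraries, against 2240 to 2370 in WT. Such a sum is weighted to the most abundant genes, and which genes set it was not examined. It is therefore not read as a contrast between stromal and matrix genes. The same sum was above WT in polysome RNA, at 1880 to 1940 against 1780 to 1810, and in monosome RNA, at 2590 to 2630 against 2290 to 2470. Over 19 tested genes of TGF-beta and PDGF signalling it was 0.05, with 10 above 0, and the ligands Pdgfb and Tgfb3 stood at -0.36 ± 0.10 and -0.45 ± 0.18 and the co-receptor Tgfbr3 at 0.48 ± 0.24. Of 15 matrix genes that macrophages are known to make, 14 were above 0, with a median of 0.09. Ptx3, a pentraxin induced by LPS, stood at 0.87 ± 0.19, the matrix protein Tgfbi at 0.54 ± 0.32 and the hyaluronan-binding Tnfaip6 at 0.69 ± 0.43. Over 23 matrix-degrading genes of macrophages it was 0.04, with the protease inhibitor Timp1 at 0.40 ± 0.13, the stromelysin Mmp3 at 0.57 ± 0.20 and the collagenase Mmp8 at -0.35 ± 0.14. None of the genes in these lists passed the threshold in total RNA, against 0% of all genes called higher and 0.0156% called lower. Of all genes tested 51.9% were above 0 there. The shares above 0 among collagen synthesis enzymes and signalling genes were near that value.

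The distribution of the matrix mRNAs between RNA sources did not differ detectably between the labels. No member was called for a genotype difference of the polysome to total ratio, the monosome to total ratio or the polysome to monosome ratio, by edgeR, DESeq2 or voom. Of all genes, 0% were called in either direction for the first. For the second, 0.00782% were called higher and 0.0469% lower, and for the third 0.0469% and 0.00782%. The median log2 differences of the ratios were 0.05, 0.09 and -0.04. In edgeR's test 0, 0 and 1 of 33 had an unadjusted p under 0.05, against 0.994% higher and 0.798% lower, 2.18% and 3.1%, and 3.25% and 2.06% of all genes. The 1 gene was Adamts6, whose polysome to monosome ratio differed by 1.47 ± 0.67 (adjusted p = 0.924).

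The RNA sources themselves differed far more than the genotype labels. Against total RNA, the matrix genes were low in polysome RNA in both labels. In WT, 20 of 33 fell and 1 rose, against 16.5% of all genes called in each direction, and the median log2 difference was -0.65 beside -0.02 over all genes. In KO-labelled libraries 21 fell and 0 rose, against 15.8% and 16%, with a median of -0.62. All 5 fibrillar collagens fell in both labels, with medians of -1.39 in WT and -1.11 in KO-labelled libraries. The lowest values in WT were Col5a2 at -1.51, Col3a1 at -1.48, Lum at -1.47 and Col1a1 at -1.39.

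Of the basement membrane and beaded collagens 4 of 5 fell in WT, against 16.5% of all genes called in each direction. Their median was -1.03, and Col4a2 was the lowest at -1.31. Of the glycoproteins and proteoglycans 7 of 10 fell and 1 rose, with a median of -0.67: Bgn fell by 1.08, Sparc by 0.69, Dcn by 0.65 and Fstl1 by 0.48 on the log2 scale. Cyr61 was the gene that rose, by 0.34 ± 0.13 (adjusted p = 0.0476). The call held in 8 of 14 other settings, with adjusted p-values from 0.0239 to 0.167, and in KO-labelled libraries the difference was 0.17 and was not called. Of the 7 processing genes 2 fell, Pcolce and Timp3, at -0.80 and -0.68, with a median of -0.31 over the 7. These 2 calls are not read as a departure from the share of all genes. Lox, at -0.31 in WT and -0.33 in KO-labelled libraries, was not called. Pdgfra fell by 0.79 among the surface genes and Cald1 by 0.44 among the contractile genes.

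In monosome against total RNA the members went both ways. In WT 15 fell and 2 rose, against 31% and 31.4% of all genes, with a median of -0.53, and in KO-labelled libraries 14 fell and 7 rose, against 33% and 32.4%, with a median of -0.45. These calls depend on scaling: monosome libraries had TMM factors of 0.605 to 0.664 against 1.24 to 1.3 in the others, and without scaling the median over all genes was -1.03 in WT and -1.07 in KO-labelled libraries. The members then split into 1 higher and 27 lower in WT, against 8.89% and 69.2% of all genes, and into 1 higher and 25 lower in KO-labelled libraries, against 9.29% and 70.1%. Dcn rose by 1.34 ± 0.09 in WT (adjusted p = 6.54e-09) and by 1.32 in KO-labelled libraries, in the same direction with and without scaling. Col1a1 fell by 1.87 in WT and by 1.60 in KO-labelled libraries, and Col1a2 fell by 0.65 and 0.61. The 5 fibrillar collagens all fell in WT, at a median of -0.89. In KO-labelled libraries 4 fell, at a median of -0.95. Cald1 rose by 0.45 in WT and 0.63 in KO-labelled libraries with TMM scaling, and stood at -0.54 and -0.40 without scaling. Mgp rose by 1.24 in KO-labelled libraries, and stood at 0.22 without scaling.

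**Figure D4:**
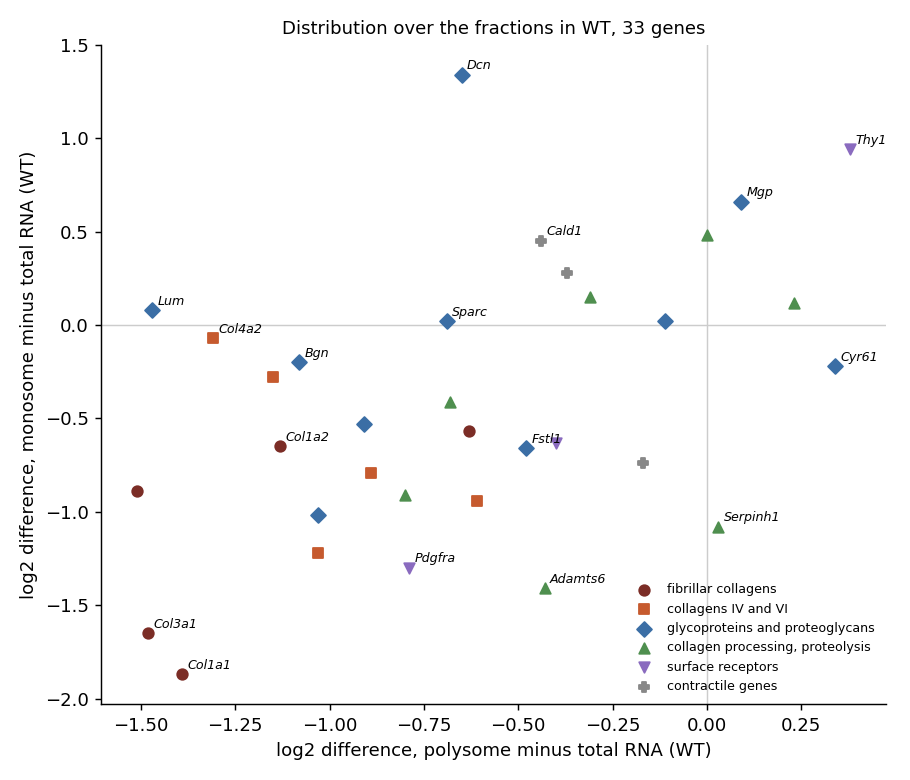
Log2 difference of polysome against total RNA (x axis) and of monosome against total RNA (y axis) in WT, with TMM scaling, for the 33 tested matrix genes; the marker shows the role. The fibrillar collagens lie low on both axes, Dcn is low on the x axis at -0.65 and high on the y axis at 1.34, and without scaling the all-gene median on the y axis is -1.03.

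In polysome against monosome RNA calls went both ways among the members, as among all genes. With TMM scaling 5 of 33 rose and 10 fell in WT, against 26.2% and 29% of all genes, and 4 rose and 11 fell in KO-labelled libraries, against 28.6% and 29.5%. The share that fell was thus near that of all genes, and the share that rose was below it. The medians over the members were -0.12 and -0.30. Without scaling, which moved the all-gene median to 1.01 and 1.04, 22 were higher and 1 lower in WT, against 72.1% and 5.7% of all genes, and 21 higher and 2 lower in KO-labelled libraries, against 72.3% and 6.15%. Dcn fell by 1.99 ± 0.10 in WT and by 1.91 in KO-labelled libraries and stayed below 0 without scaling. Col1a2 fell by 0.49 and 0.50, and Bgn by 0.88 and 0.95, and both stood above 0 without scaling, Col1a2 at 0.52 and 0.51 and Bgn at 0.13 and 0.07. Cyr61 rose by 0.57 in WT and by 0.39 in KO-labelled libraries. Col1a1 rose by 0.48 in WT (adjusted p = 0.0499), a call held in 7 of 14 other settings.

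Long macrophage mRNAs were also low in polysome RNA. In WT polysome against total RNA, 29 of 39 long mRNAs of secreted or membrane proteins of macrophages fell (median -0.53), and 31 of 40 long mRNAs of cytosolic proteins fell (median -0.67). Of 36 short mRNAs of secreted or membrane proteins 12 fell and 10 rose (median -0.09). Among all genes tested 16.5% were called in each direction in this comparison. The median coding length was 1986 bases for the matrix genes (312 to 9852), 2982 and 7567 for the long lists, and 742 for the short list, by the GENCODE annotation of GRCm38. Across the 33 matrix genes the log2 polysome to total ratio in WT had a Pearson correlation of -0.58 and a Spearman correlation of -0.53 with log2 coding length, beside -0.46 and -0.50 across 11680 genes. For the monosome to total ratio the values were -0.57 and -0.55 beside -0.53 and -0.58. Genes are not independent replicates, and the points share the same libraries, so these are descriptions. Over 34 other matrix genes 18 fell and 1 rose in polysomes (median -0.63), and over 23 collagen synthesis enzymes 10 fell (median -0.38).

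Ratios of counts within a library do not depend on scaling and set matrix genes apart from one another. They were chosen after the values were seen and carry no test. Col1a1 and Col1a2, of nearly equal coding length (4359 and 4116 bases), had a count ratio of 0.649 ± 0.0667 in WT total (mean ± SD, n = 3), 0.541 ± 0.0768 in polysome and 0.281 ± 0.0465 in monosome RNA. In KO-labelled libraries the ratios were 0.616, 0.537 and 0.315. Col4a1 and Col4a2 (5007 and 5121 bases), neighbours that share 22 bases, had 1.64 ± 0.0945 in WT total, 2.19 ± 0.106 in polysome and 0.999 ± 0.219 in monosome RNA. The KO-labelled ratios were 1.71, 2.13 and 1.11. Both pairs of partner chains thus had their lowest ratio in monosome RNA, below the total RNA ratio by more than the spread between libraries. The type IV pair had its highest ratio in polysomes, beyond that spread, whereas the type I pair had its highest mean in total RNA. Dcn to Col1a2 had 0.657 ± 0.0701 in WT total, 0.919 ± 0.153 in polysome and 2.58 ± 0.245 in monosome RNA. In KO-labelled libraries it had 0.528 ± 0.0145, 0.763 ± 0.0504 and 2.01 ± 0.141, lower on average in each RNA source. Ctgf to Cyr61 went from 0.312 ± 0.0407, 0.233 ± 0.0572 and 0.373 ± 0.0717 in WT to 0.391 ± 0.0255, 0.34 ± 0.0556 and 0.627 ± 0.0354 in KO-labelled libraries.

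**Figure D5:**
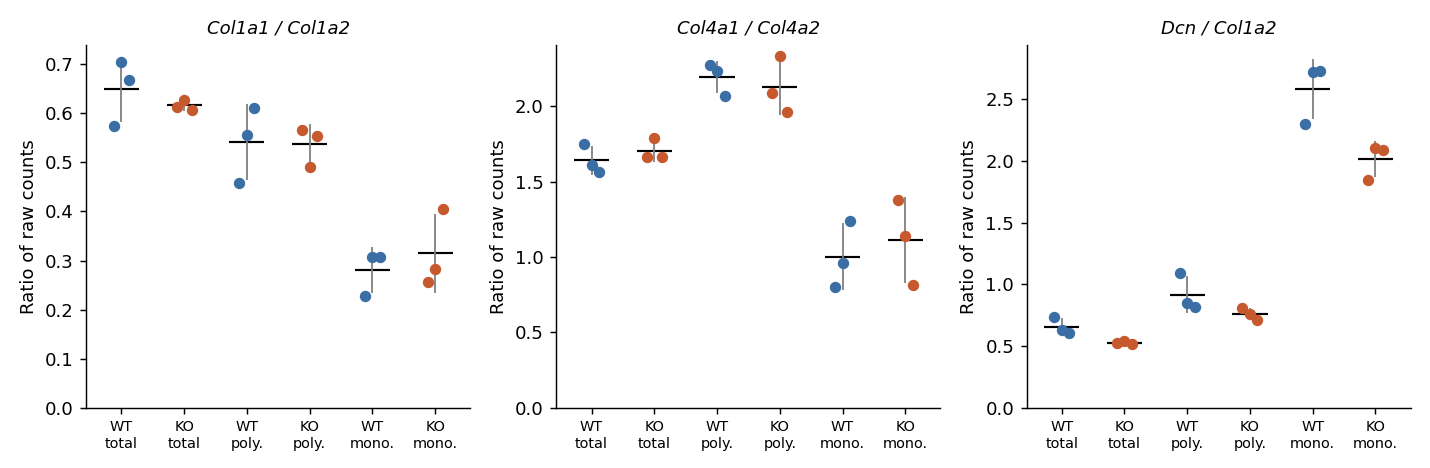
Ratios of counts within a library (y axis) for Col1a1 to Col1a2, Col4a1 to Col4a2 and Dcn to Col1a2, by RNA source and genotype label (x axis). Points are libraries. Dcn to Col1a2 is highest in monosome RNA, at means of 2.58 in WT and 2.01 in KO-labelled libraries, where Col1a1 to Col1a2 is lowest, at 0.281 and 0.315.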

How the data were processed

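The 34 genes were taken from 1 deposited table that holds, for each of 18 libraries of mRNA made with a SMARTer kit, counts per gene and FPKM. The authors deposited the counts unnormalised, per the file headers and the whole values. The deposited FPKM are the counts divided by a fixed length per gene and the column total (for 9554 genes averaging 50 counts or more, the length so implied varied by no more than 0.071% between libraries) and were used only to compare levels between genes. FPKM take no account of TMM scaling, so they are compared within total RNA only. Per the submitters' processing notes fastp 0.23.2, HISAT2 2.0.4 and StringTie 1.3.0 were used, with no roles given. The genome build is not given in the sources used here. Positions are those of the table, and 24 of the 34 genes had the same position in the GENCODE annotation of GRCm38. There were 0 columns of samples outside the labels. Counts were fitted in R 4.3.3 with edgeR 4.0.16: filterByExpr with the 6 groups (12782 of 34745 genes), TMM scaling, 1 mean per group over 18 libraries, two-sided quasi-likelihood F test (prior degrees of freedom 3.41), Benjamini-Hochberg adjustment over all genes tested, threshold 0.05. Standard errors come from that fit. Libraries of 1 group differed beyond counting noise, and none was counted as a repeat. Library totals, 9190034 to 16711558 counts, leave genes of a few counts a library, such as Adamts6, Lum and Postn, with wide errors. The members and all lists were chosen with earlier results of these data known. Values in every library are given for the 10 members of highest mean CPM, any member called between genotypes, and Adamts6, Acta2, Tagln and Thy1; beside these, up to 3 genes of smallest p in total RNA of each list, and the 10 non-members whose log2(CPM + 1) correlates best with the members' mean. Other names were chosen after their values were seen. Alternatives were RLE size factors, no scaling, leaving the filter out, keeping genes of at least 5 CPM on average, fitting the compared libraries alone, the replicate number as a block, DESeq2 1.42.0, voom with quality weights in limma 3.58.1, each library left out, and, for the sum, leaving out Col1a1, Col1a2, Col3a1 and Sparc. Plots used matplotlib 3.10.9 (Python 3.11.15).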

Additional observations from a re-analysis of the deposited data

Results flagged for a closer look

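Postn, the gene of the matricellular protein periostin, had 34 counts in the 18 libraries together and was not tested. In total RNA its mean was 0.0208 CPM in the KO-labelled and 0.151 in the WT libraries, a difference of -0.13. In monosome RNA its mean was 0.478 in the KO-labelled and 0.0477 in the WT libraries, a difference of 0.43. In CPM the labels did not overlap in either RNA source and stood in opposite order, which is why the values are given. In total RNA, however, WT replicate 2 and KO-labelled replicate 3 both had 1 count, so that they are set apart by library size alone. The values rest on 0 to 5 counts a library, and the difference between the RNA sources was not tested.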

How the results depend on the processing

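The number of members called between genotypes was 0 in total RNA (2 with voom), 0 in polysome RNA (3 with DESeq2) and 1 in monosome RNA (0 with the compared libraries alone or with voom, 4 with DESeq2, 1 to 2 with a library left out). The monosome calls with DESeq2 were Ctgf, Col1a2, Col3a1 and Lox. With the replicate number as a block the counts were 0, 0 and 4 between genotypes (Ctgf, Col1a1, Col3a1 and Lox in monosome RNA, among 25 genes in all called higher), 23, 22, 20, 23, 14 and 17 between RNA sources, and 0 for each genotype difference of ratios. The counts between RNA sources join both directions and stand without the share of all genes called in that fit. They are therefore not read as a result about the members. Same-numbered libraries correlated at -0.08 to 0.19, no comparison had all 3 pairs over 0.1, and the main fit did not pair them. Each library correlated best with its own number in 3 comparisons, among them polysome against total RNA in both labels. Col1a1 was highest in replicate 3 of every group, and the count ratio of Lox to Col1a2 was lowest there. Whether equal numbers mark a shared culture or animal was not tested. Without scaling, calls went from 17 to 28 (monosome against total RNA in WT), from 15 to 23 (polysome against monosome RNA in WT) and from 15 to 23 (the same in KO-labelled libraries). A filter at 5 CPM left 12 of 21 calls (monosome against total RNA, KO-labelled) because fewer members, 21, passed it. Polysome against monosome RNA in WT had 9 to 14 calls with a library left out, 9 without WT polysome replicate 2. Without scaling these log2 differences, called in at least 1 of the 2 fits, turned sign. Monosome against total RNA in WT gave -0.98 for Sparc, -0.97 for Ctgf, -0.85 for Lox, -0.71 for Acta2 and -0.54 for Cald1. In KO-labelled libraries it gave -0.90 for Sparc, -0.10 for Lum, -0.55 for Ctgf, -0.78 for Lox, -0.28 for Loxl1, -0.39 for Acta2 and -0.40 for Cald1. Polysome against monosome RNA in WT gave 0.52 for Col1a2, 0.91 for Col4a1, 0.96 for Col5a1, 0.15 for Col6a1, 0.30 for Sparc, 0.64 for Fbn1, 0.73 for Timp3, 0.13 for Bgn, 0.88 for Ctgf, 0.55 for Lox, 1.0 for Fbln2, 0.36 for Acta2 and 0.11 for Cald1. In KO-labelled libraries it gave 0.51 for Col1a2, 0.16 for Col4a2, 0.72 for Col5a2, 0.68 for Col6a1, 1.0 for Col6a2, 0.98 for Col6a3, 0.48 for Sparc, 0.40 for Fbn1, 0.07 for Bgn, 0.50 for Ctgf, 0.44 for Lox and 0.24 for Acta2. The summed level without scaling was, for WT and KO-labelled libraries, 810.7 and 998 CPM in total RNA, 521 and 652 in polysome RNA, and 351 and 436 in monosome RNA. Without Col1a1, Col1a2, Col3a1 and Sparc it was 420.5 and 513, 303 and 375, and 411 and 517. Over all members, comparisons and settings, 5370 further values kept sign and side of the threshold, 315 differences called under neither setting turned sign, 92 newly passed the threshold and 143 no longer did. The cause was not tested. Another pseudocount was not tried, since counts were at hand. Low depth limits Adamts6, Lum, Thy1 and Postn.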
